A study of Gallus gallus with 66 samples.

Results

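Genes of the transforming growth factor beta (TGF-beta) and bone morphogenetic protein (BMP) pathways were followed in chicken preadipocytes, the stromal cells of abdominal fat that can become fat cells. The genes were found by name. They were ligands of the TGFB, BMP, GDF and inhibin beta families with INHA, the TGFBR, BMPR and ACVR receptors and numbered SMADs. The secreted antagonists GREM1, NOG, CHRD, FST, FSTL1 and FSTL3 were included. So were LTBP1 and LTBP2, which are named as latent TGF-beta binding proteins. This rule found 44 of the 13009 genes that the array annotation names, and each gene was read on its brightest probe set. Of the 44 genes, 35 passed the filter on dim probe sets and were tested. The other 9, BMP4, BMP6, BMP10, BMP15, GDF3, INHA, BMPR1B, ACVR1B and ACVR1C, were not above the array median on all 3 arrays of any group. One member, BMP2K, is a protein kinase that matches by name and is not a part of the signalling cascade.

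The ligands of this family are secreted dimers. TGF-beta is stored in the matrix in a latent complex that proteins such as LTBP1 tether. BMPs are held back by antagonists such as noggin, chordin and gremlin, and activins, the dimers of inhibin beta subunits, by follistatin. A ligand brings type II and type I receptor kinases together, SMAD2 and SMAD3 pass on the signals of TGF-beta and activin, SMAD1, SMAD5 and SMAD9 those of BMPs, and SMAD6 and SMAD7 are inhibitory SMADs that the pathway itself induces. In mammalian fat, TGF-beta is known for holding preadipocytes back from differentiation, and BMP2 and BMP4 for favouring it.

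The cells came from a lean and a fat chicken line, named for their abdominal fat content, as a pool of the abdominal fat of 15 males per line killed at 10 days of age. Each line gave cells never cultured, passaged cells that covered 50% of the dish (-12 h) or 95% of it (0 h), and cells at 12, 24, 72 and 120 h after that stage, kept with 160 µg/ml oleate, a monounsaturated fatty acid, or without it (control). Each of the 22 groups had 3 arrays, 66 in all. The labels call these biological replicates but do not say whether they were separate dishes or pools, so p-values here measure only the spread between these arrays, and a line stands on 1 pool of birds. Levels and differences are in log2 units, values below 1.61 were raised to that lower bound, and a gene is said to have risen or fallen only at an adjusted p under 0.05 over all 22060 probe sets tested with limma. A level on one probe set cannot be set against that of another gene.

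The stromal markers DCN and COL1A1 were high on every array, at 12.48 or above for DCN and 13.05 or above for COL1A1. LUM, COL1A2, COL3A1 and POSTN were at 10.74 or above, and THY1, PDGFRB and EBF1 at 6.68 or above. Other stromal markers were not high on every array. The lowest control arrays were at 2.37 for PDGFRA and 3.44 for TCF21. The lowest oleate array was at 4.06 for EBF2, and these 3 values lie under the array median of 4.17. DLK1, a preadipocyte marker in mammals, was at the lower bound on 5 of 6 arrays at 0 h. No 2 arrays had identical values. Array names in the labels come in 2 styles: control arrays of 12 to 120 h and the fat line's -12 h arrays have one, and the others have the second, except 1 array without a name. Oleate and control therefore always differ in style as well, and so do -12 h and 0 h in the fat line. The difference between lines in the contrast of 0 h with -12 h, here called the style shift, is the only measure of style without oleate. It holds any difference between the lines in their change with confluence as well, and style and that difference cannot be told apart. The style shift was called for 598 of the 22060 probe sets tested. Among the 35 genes it was called for 2, TGFB1 (1.04 ± 0.29, SE, adjusted p = 0.0326 in limma) and SMAD5 (-1.54 ± 0.33, adjusted p = 0.00234).

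Of the 44 genes, 21 were above the array median on all 66 arrays, among them all 3 TGF-beta ligands, LTBP1, INHBA, INHBB, BMP2, ACVR2A, TGFBR1, the 5 receptor SMADs and both inhibitory SMADs. The widest ranges of group means were those of GREM1 (4.45), TGFBR3 (4.25), BMP7 (3.84) and BMP5 (3.76). GREM1, a secreted BMP antagonist, was also the most uneven within groups, with a median SD of 0.97 over the 22 groups of 3, and lay at the lower bound on 13 of 66 arrays. ACVR2A, SMAD2 and BMPR1A had group means that ranged over 0.74, 0.63 and 0.69.

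**Figure D1:**
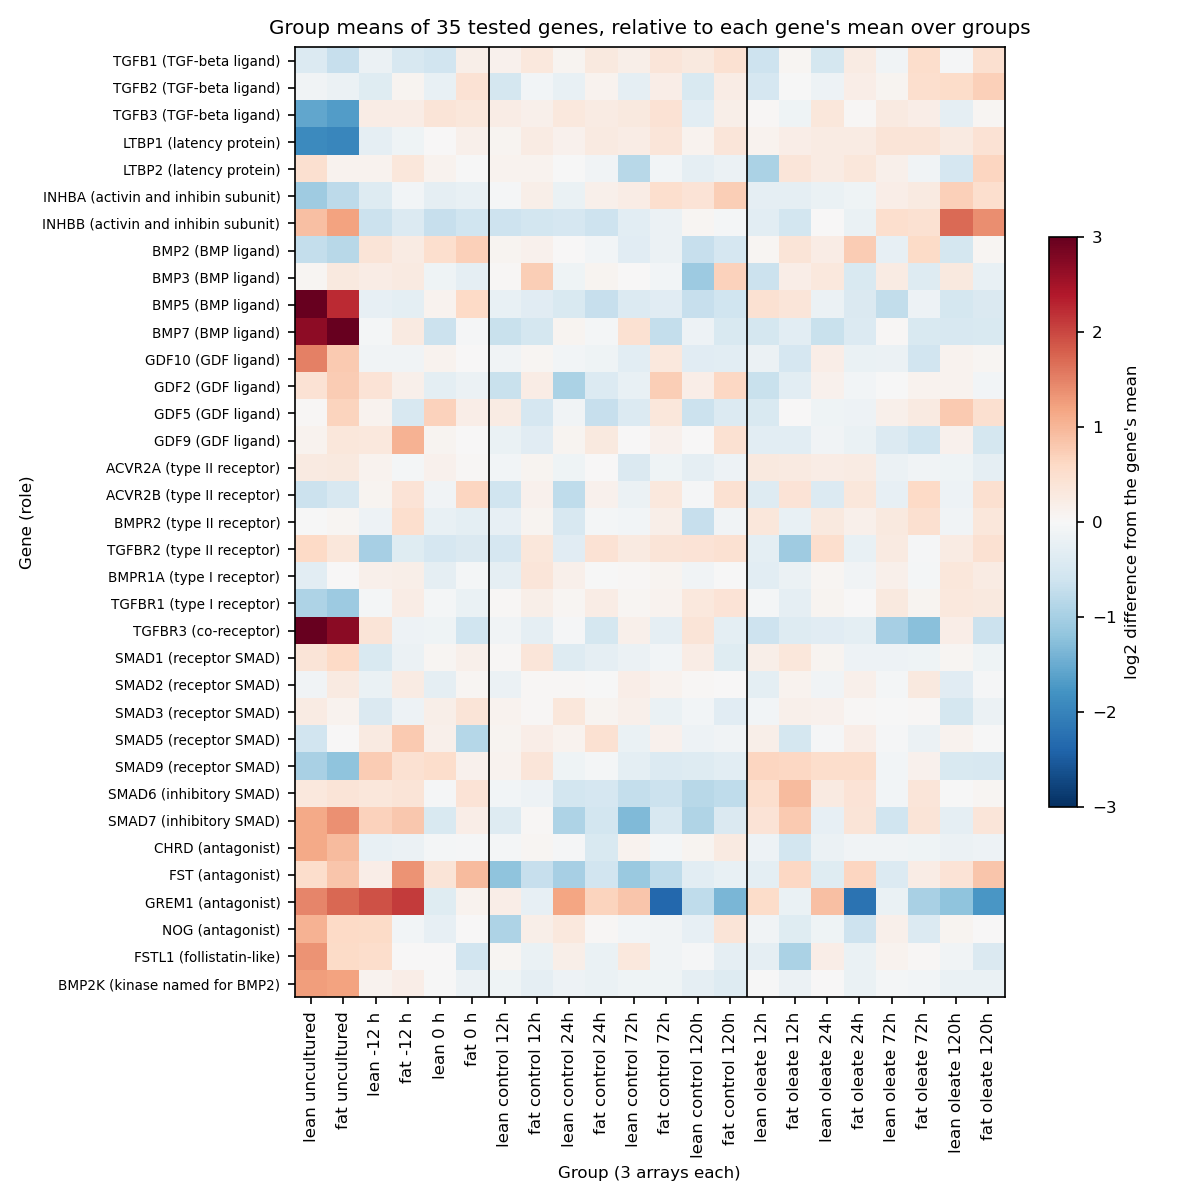
Heat map of the 35 tested genes (rows, with their roles) over the 22 groups of 3 arrays (columns), as the log2 difference of each group mean from the gene's mean over groups, with colours that end at -3 and 3. Uncultured cells, in the first 2 columns, stand apart with high BMP7, BMP5 and TGFBR3 and low TGFB3 and LTBP1. BMP5 and TGFBR3 passed the filter on dim probe sets only through uncultured groups.

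The first comparison asks what differed between cells at 0 h and the uncultured cells they were grown from. TGFB3, LTBP1, BMP2, SMAD9 and TGFBR1 were higher in culture, while BMP7, INHBB and the antagonists CHRD, NOG and GREM1 were lower. In all, 8 genes rose and 13 fell among the 35, which is 60% of them, against 68.9% of all probe sets tested (40.8% higher and 28.1% lower). The 13 include BMP5, GDF10 and TGFBR3, which passed the filter on dim probe sets only through uncultured groups, so the filter favoured their fall. The median difference of the 35 genes was -0.20, and that of all probe sets tested was 0.18 in the same comparison. Since every array has nearly the same distribution of values, that median is not shown to be a general rise. Both groups had array names of 1 style.

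Among the ligands, TGFB3 was at 10.52, 11.08 and 10.42 in uncultured lean cells and 10.54, 10.48 and 10.66 in uncultured fat-line cells. At 0 h the lean arrays were at 12.53, 12.67 and 12.64 and the fat-line arrays at 12.50, 12.60 and 12.62. All 6 cultured arrays lay above all 6 uncultured ones, with a difference of 1.97 ± 0.17 (SE, 6 arrays against 6, adjusted p = 1.33e-14 in limma). TGFB1 rose by 0.36 ± 0.14 (adjusted p = 0.0243), with overlap between the groups, and TGFB2 did not pass the test. LTBP1, which binds latent TGF-beta to the matrix, went from 9.85, 10.34 and 9.83 in lean and 10.27, 9.87 and 9.73 in fat-line uncultured cells to 11.97, 11.96 and 11.88 and to 12.01, 12.02 and 12.23 at 0 h. Again no cultured array reached down to an uncultured one, and the difference was 2.03 ± 0.09 (adjusted p = 7.59e-26).

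BMP ligands went both ways. BMP7, a ligand known in mammals for promoting brown fat, was at 6.84, 7.61 and 7.14 in lean and 6.94, 8.19 and 7.76 in fat-line uncultured cells, and at 4.21, 2.64 and 4.68 and 4.74, 4.57 and 4.08 at 0 h. BMP7 fell by 3.26 on the log2 scale (SE 0.29, adjusted p = 2.52e-14) with no overlap. BMP5 fell by 2.28 (SE 0.40, adjusted p = 2.09e-06), from 3.53 or above to 3.81 or below, with 1 array at 0 h at the lower bound. BMP2, in contrast, rose by 1.38 ± 0.22 (adjusted p = 4.98e-07): its highest uncultured array was at 9.18 and its lowest array at 0 h at 9.40. GDF10 and GDF2 fell by 1.09 and 0.82. BMP5, GDF10 and, among the receptors, TGFBR3 passed the filter on dim probe sets only through uncultured groups, so the filter favoured a fall and their calls are no support for one. Of the activin subunits, INHBA rose by 0.68 ± 0.17 (adjusted p = 0.00034) and INHBB fell by 1.71 (SE 0.36, adjusted p = 4.04e-05), both without overlap. INHBB was at 7.69, 6.18 and 7.51 in lean uncultured cells and 5.66, 4.88 and 6.01 in lean cells at 0 h.

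Among the receptors, TGFBR3 (betaglycan), the co-receptor that presents TGF-beta2, was at 6.05, 6.32 and 5.94 in lean and 5.52, 5.71 and 6.22 in fat-line uncultured cells. At 0 h it was at 2.69, 3.54 and 2.68 and at 3.50, 1.61 and 2.38, the 1.61 being the lower bound. TGFBR3 fell by 3.23 (SE 0.37, adjusted p = 8.06e-11), and no array at 0 h reached an uncultured one. As said above, TGFBR3 was tested only because uncultured groups passed the filter, so its call is no support for a fall. TGFBR2, the type II receptor of TGF-beta, fell by 0.94 on its brightest probe set (SE 0.25, adjusted p = 0.000792) and by 5.21 on its second (SE 0.47, adjusted p = 3.48e-14), where the 6 uncultured arrays lay between 7.28 and 7.99 and the 6 arrays at 0 h between 1.61 and 3.71. Whether any passaged group passed the filter on that second probe set is not shown here, so its call is no support for a fall. TGFBR1, the type I partner of TGFBR2, rose by 0.88 ± 0.10 (adjusted p = 4.1e-11), from at most 9.53 to at least 9.98. The activin receptor ACVR2B rose by 0.83 ± 0.24 (adjusted p = 0.00223).

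SMAD9, a BMP receptor SMAD, rose by 1.42 ± 0.18 (adjusted p = 5.91e-10), from 4.91 to 5.66 over the 6 uncultured arrays to 6.27 to 7.34 over the 6 arrays at 0 h. The other 4 receptor SMADs, SMAD1, SMAD2, SMAD3 and SMAD5, did not pass the test on the mean of the lines. SMAD7 fell by 1.38 (SE 0.18, adjusted p = 4.59e-09) on its brightest probe set, from at least 9.52 to at most 9.30. Its other probe set differed by 0.08 ± 0.18 (adjusted p = 0.703), so the fall of SMAD7 rests on 1 of 2 probe sets. SMAD6 differed by -0.16 ± 0.14 (adjusted p = 0.315).

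Of the antagonists, CHRD (chordin) fell by 1.09 (SE 0.19, adjusted p = 1.14e-06) without overlap, NOG (noggin) by 0.95 (SE 0.33, adjusted p = 0.00985) and GREM1 by 1.72 (SE 0.71, adjusted p = 0.0281). GREM1 was even in uncultured cells, at 6.01, 5.34 and 5.14 (lean) and 5.40, 6.14 and 5.74 (fat line). At 0 h it was scattered, at 2.25, 2.38 and 6.39 (lean) and 5.05, 5.76 and 1.61 (fat line). So 3 of 6 arrays kept the uncultured level and 3 lay far below it. FST (follistatin), which binds activin, differed by -0.02 ± 0.40 (adjusted p = 0.972). FSTL1, a secreted glycoprotein of the follistatin-like kind, fell by 1.24 (SE 0.18, adjusted p = 2.78e-08) and BMP2K by 1.32 (SE 0.10, adjusted p = 4.54e-17). The calls of TGFB1 and of GREM1 were lost without any 1 of 5 arrays, that of GDF2 without any 1 of 7 and that of NOG without replicate 3 of lean 0 h (-0.67), whereas the other 17 held without any single array.

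**Figure D2:**
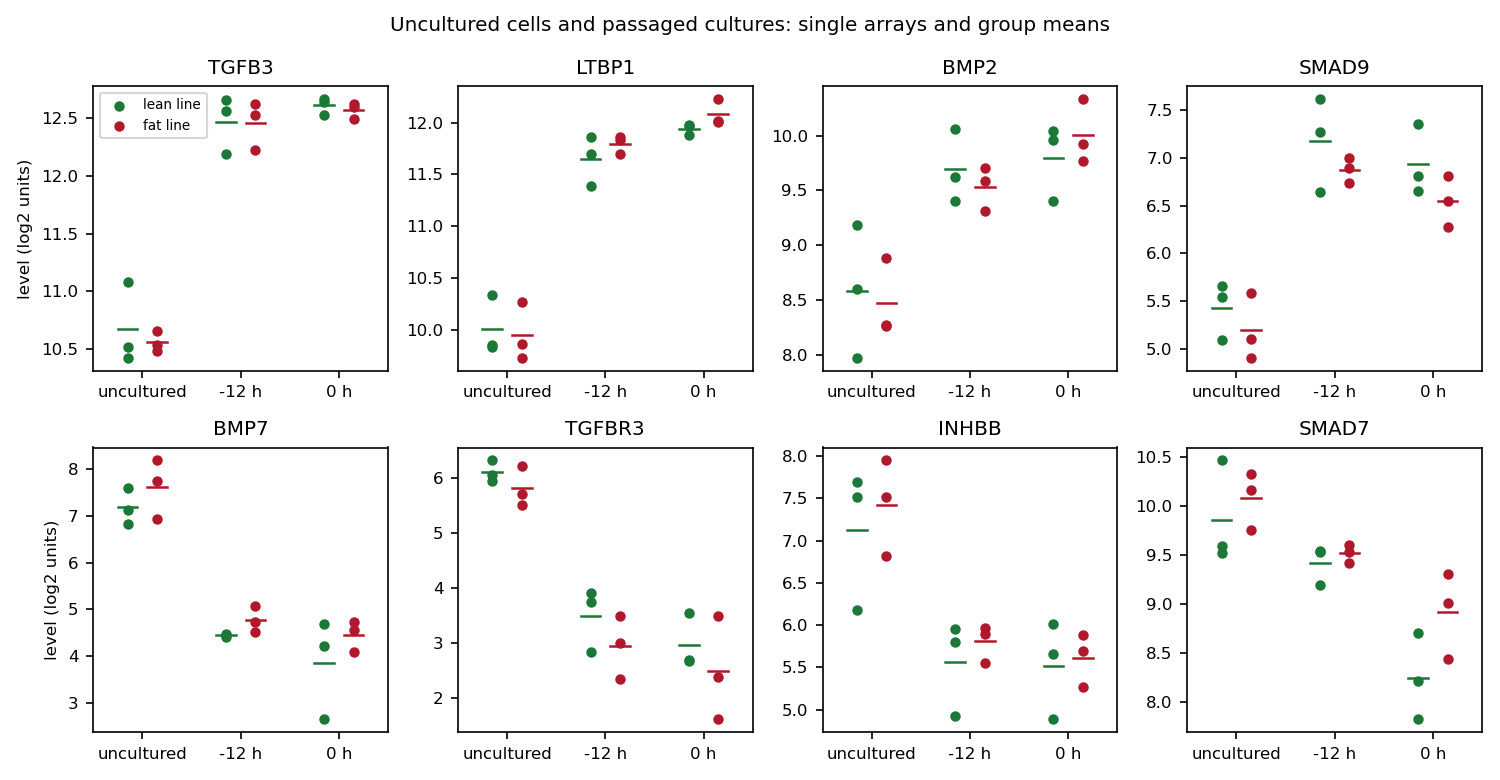
Levels (log2 units) of 8 genes on single arrays (points) with group means (bars) in uncultured cells, at -12 h and at 0 h, lean line in green and fat line in red, 3 arrays per group. TGFB3, LTBP1, BMP2 and SMAD9 lie higher in both passaged stages than in uncultured cells, and BMP7, TGFBR3 and INHBB lower; SMAD7 lies between them at -12 h.

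Markers of several other cell types fell in the same comparison: 10 of 12 macrophage, 6 of 8 lymphocyte, 8 of 8 endothelial and 3 of 5 red cell markers tested. None of these 4 lists had a marker that rose, but smooth muscle and mesothelial markers, given below, did rise. On the log2 scale the summed level of the 12 macrophage markers was 14.59 to 15.02 over uncultured arrays and 11.48 to 12.69 at 0 h, that of the 10 endothelial markers 11.18 to 11.90 and 9.09 to 9.71, that of the 8 lymphocyte markers 11.07 to 11.72 and 6.51 to 6.99, and that of the 5 red cell markers 9.76 to 12.39 and 5.26 to 5.82. CD4, HBA1, SLC4A1, TEK and TIE1 were at 4.16 or below on every passaged array, under the array median of 4.17. They passed the filter on dim probe sets only through uncultured groups, so the filter favoured a fall and they are no support for one. CD3E, CD5, IL7R and TLR4 were at 4.17 or below on every array at 0 h and higher on some other passaged arrays. Whether any passaged group passed the filter for these genes is not shown here, so their calls are no support for a fall either. At 0 h 1 endothelial marker and none of the macrophage, lymphocyte or red cell markers was at the lower bound on all 6 arrays, and CD74, which macrophages carry, was still at 7.84 to 8.73. Preadipocyte and stromal markers fell too, 10 of 12, with summed levels of 15.74 to 15.93 and 15.34 to 15.51, as did 6 of 9 adipocyte markers. The stromal sum mostly follows DCN and the collagens, which lie near the highest value in the data, 13.51. Medians went from 10.48 to 7.57 for EBF1, 8.15 to 5.63 for EBF2 and 9.26 to 7.89 for TCF21, but from 9.47 to 9.69 for THY1. In contrast, 3 of 4 smooth muscle markers rose and 1 fell, and 1 of 2 mesothelial markers rose, with none lower. The part of all these cell types in the changes of BMP7, TGFBR3, TGFBR2 and the others was not tested. In bulk RNA fewer cells of a type and less RNA per cell cannot be told apart.

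Of the other genes of the pathway, a list of 60 of which 44 were tested, 10 rose and 19 fell, beside 40.8% and 28.1% of all probe sets tested. BMPER, a secreted BMP-binding protein, rose by 4.14 ± 0.29 and MSX1, a homeobox gene that BMPs induce, by 2.84 ± 0.23. TMEFF2, a transmembrane protein with follistatin-like domains, rose by 3.01 ± 0.23, and THBS1, which can activate latent TGF-beta, by 2.29 ± 0.11. CHRDL1, a chordin-like antagonist, fell by 5.35 (SE 0.38), and FBN1, the fibrillin that holds latent complexes in the matrix, by 2.23 (SE 0.36).

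The culture effect differed between the lines for 2 of the 35 genes, 1 in each direction (3.63% of all probe sets tested, 2.05% higher and 1.57% lower). TGFB1 rose in the fat line by 0.87 ± 0.20 (adjusted p = 0.000248 in limma) and differed by -0.15 ± 0.20 in the lean line. Its fat-line arrays went from 6.62, 6.51 and 6.82 to 7.07, 7.69 and 7.82, without overlap, while lean arrays went from 7.32, 6.64 and 6.86 to 7.45, 6.43 and 6.48. SMAD5 moved in opposite directions, up by 0.73 ± 0.23 in the lean line (adjusted p = 0.00552) and down by 0.87 in the fat line (SE 0.23, adjusted p = 0.0011). Its levels were 6.91, 7.53 and 7.43 in lean and 7.89, 8.33 and 7.42 in fat-line uncultured cells, then 7.49, 8.34 and 8.25 in lean and 6.90, 6.95 and 7.18 in fat-line cells at 0 h. The second SMAD5 probe set differed between lines by -0.96 ± 0.53 (adjusted p = 0.374) and fell by 1.39 on the mean of the lines (SE 0.26, adjusted p = 7.76e-06), where the brightest differed by -0.07.

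From 50% to 95% confluence, 6 of the 35 genes changed (15.2% of all probe sets tested, 8.36% higher and 6.85% lower), 2 up and 4 down. SMAD3 was at 8.61, 8.49 and 8.60 in lean and 8.86, 8.99 and 8.71 in fat-line cells at -12 h, and at 9.29, 9.16 and 9.09 and 9.18, 9.36 and 9.68 at 0 h. SMAD3 rose by 0.58 ± 0.12 (adjusted p = 0.000361) and the groups did not overlap. SMAD7 fell by 0.88 (SE 0.18, adjusted p = 0.000604): all -12 h arrays were at 9.19 or above, and the arrays at 0 h ran from 7.83 to 9.30. The second SMAD7 probe set differed by -0.32 (adjusted p = 0.235), and with probe sets averaged SMAD7 differed by -0.44 and was not called. The second probe sets of SMAD3 and SMAD5 were not called either, at 0.35 and -0.53 (adjusted p = 0.282 and 0.184). LTBP1 rose by 0.29 ± 0.09 (adjusted p = 0.0187), and by 0.40, 0.57 and 0.59 on 3 of its other 4 probe sets, and FSTL1 fell by 0.55 (SE 0.18, adjusted p = 0.0302). GREM1 fell by 2.14 (SE 0.71, adjusted p = 0.0314), from 5.59 or above on all 6 arrays at -12 h to the scattered values given above.

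SMAD5 fell by 0.88 on the mean of the lines (SE 0.16, adjusted p = 0.000127), but by 1.65 in the fat line, from 8.42, 8.61 and 8.96 to 6.90, 6.95 and 7.18, and by 0.11 in the lean line, where the arrays overlapped. The fat line's groups also differ in name style. In the lean line alone, within a single style, 2 genes changed, SMAD3 and SMAD7 (SMAD7 by -1.17 ± 0.26, adjusted p = 0.00872), against 1.9% of all probe sets tested. Of the pathway list, 2 of 44 rose and 7 fell on the mean of the lines, beside 8.36% and 6.85% of all probe sets tested. Among those that fell were ID1, an inhibitor of differentiation that BMPs induce, by 1.43 (SE 0.36), and ID3, by 0.48 (SE 0.15). The calls of LTBP1, FSTL1 and GREM1 were each lost without any 1 of several arrays (3, 6 and 5), and without replicate 2 of fat -12 h only 3 genes were called. Markers of other cell types moved in the same comparison. Of 9 adipocyte markers 3 fell, FABP4 from a median of 12.21 to 10.79, with summed levels of all 10 on the array of 12.96 to 13.60 at -12 h and 11.15 to 12.63 at 0 h. Of 8 endothelial markers 2 rose, CDH5 from a median of 4.65 to 7.25, with summed levels of all 10 of 8.95 to 9.87 and 9.09 to 9.71, and EMCN at the lower bound on all 6 arrays at 0 h. Their part in the changes of SMAD3, SMAD7 and the others was not tested.

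With time in culture SMAD6 and SMAD9 fell and INHBA rose, both without and with oleate. In control cultures 1 gene rose and 3 fell between 12 and 120 h (9.36% of all probe sets tested, 4.48% higher and 4.88% lower). SMAD6 was at 10.68, 10.95 and 10.69 in lean and 10.58, 10.55 and 11.02 in fat-line control cells at 12 h, and at 9.85, 10.32 and 9.93 and 10.05, 10.22 and 10.01 at 120 h. It fell by 0.68 (SE 0.14, adjusted p = 0.00133) without overlap. SMAD9 fell by 0.59 (SE 0.18, adjusted p = 0.0234), also without overlap, and BMP2 by 0.70 (SE 0.22, adjusted p = 0.0399). INHBA rose by 0.51 ± 0.17 (adjusted p = 0.0444). The second probe sets of BMP2 and INHBA had the same signs but were not called, at -0.48 and 0.57 (adjusted p = 0.235 and 0.0827). Only the call of SMAD6 held without any single array; those of BMP2 and INHBA were each lost without any 1 of 8 arrays and that of SMAD9 without any 1 of 3.

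In oleate cultures 6 genes rose and 5 fell over the same hours (13.3% of all probe sets tested, 6.36% higher and 6.92% lower). INHBB was at 6.34, 5.44 and 5.92 in lean and 6.01, 5.25 and 5.77 in fat-line cells at 12 h, and at 8.15, 6.49 and 9.14 and 7.48, 6.79 and 8.57 at 120 h. All arrays at 120 h lay above all at 12 h, and the rise of 1.98 ± 0.36 (adjusted p = 0.000135) was the largest of any of the 35 genes over this interval. INHBA rose by 0.89 ± 0.17 (adjusted p = 0.000243), from at most 11.89 to at least 12.04, and its second probe set by 1.18 ± 0.22. Both subunits from which activins are built were thus higher at 120 h than at 12 h within oleate cultures. FST, their binding protein, differed by 0.46 ± 0.40 (adjusted p = 0.506).

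The ligands TGFB2 and TGFB1 rose with time in oleate by 0.89 ± 0.19 and 0.51 ± 0.14 (adjusted p = 0.000918 and 0.0129). Both TGF-beta receptors rose as well, TGFBR2 by 1.04 ± 0.25 and TGFBR1 by 0.47 ± 0.10, the latter from at most 10.33 to at least 10.45. The second TGFBR2 probe set rose by 1.35 ± 0.47 in oleate (adjusted p = 0.0438) and by 2.21 ± 0.47 in control cultures (adjusted p = 0.00154), where the brightest differed by 0.52 and was not called. SMAD9 was at 7.03, 6.86 and 7.26 in lean and 6.88, 7.15 and 7.05 in fat-line cells at 12 h, and at 5.72, 6.29 and 5.83 and 5.78, 6.13 and 5.85 at 120 h. SMAD9 fell by 1.10 (SE 0.18, adjusted p = 2.12e-05) with no overlap. SMAD6 fell by 0.70 (SE 0.14, adjusted p = 0.000538). SMAD7, ACVR2A and SMAD3 fell by 0.56, 0.49 and 0.38. The second probe sets of SMAD7 and SMAD3 were not called, at -0.47 and -0.21 (adjusted p = 0.0696 and 0.57). The calls of TGFB1, SMAD3 and SMAD7 were lost without any 1 of 2, 4 and 7 arrays.

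None of the 35 genes differed in its oleate effect between 12 and 120 h at the threshold (0.304% of all probe sets tested did in limma, 0.068% higher and 0.236% lower, and 6 of the 35 had an unadjusted p under 0.05), so the rise of INHBB in oleate is not shown to exceed that in control, where it differed by 0.59 ± 0.36. The difference between the 2 was 1.39 ± 0.51 (adjusted p = 0.384). ID2, another BMP-induced inhibitor of differentiation, fell with time in control cultures by 1.89 (SE 0.34) and in oleate cultures by 1.99 (SE 0.34). On the pathway list 2 of 44 genes rose and 3 fell in control cultures, beside 4.48% and 4.88% of all probe sets tested. In oleate cultures 7 rose and 6 fell, beside 6.36% and 6.92%, with DLX5, a BMP-induced homeobox gene, at -1.56 ± 0.24 in the latter. FBN2, a fibrillin, rose by 1.18 ± 0.19 and BGN, a matrix proteoglycan that binds TGF-beta, by 1.64 ± 0.41. Of the macrophage markers, 1 rose and 1 fell of 12 in control cultures and 3 fell in oleate cultures. Of 9 adipocyte markers 1 fell in control and 3 fell in oleate cultures, and of 12 preadipocyte and stromal markers 1 fell in control, while 2 rose and 1 fell in oleate. The part of these cell types was not tested.

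The comparison of oleate with control is the study's treatment. Averaged over both lines and 4 hours, 9 of the 35 genes were higher with oleate and 2 lower (35% of all probe sets tested changed, 17.4% higher and 17.6% lower), led by FST and the 2 inhibitory SMADs. SMAD6 ran from 9.85 to 11.02 with a median of 10.30 over 24 control arrays and from 10.49 to 11.93 with a median of 11.12 over 24 oleate arrays. It was higher by 0.84 ± 0.07 (adjusted p = 5.42e-14 in limma). Within each of the 8 pairs of groups of the same line and hour, all 3 oleate arrays lay above all 3 control arrays, with differences of 0.60 to 1.09. At 12 h in the fat line, for example, SMAD6 was at 11.77, 11.93 and 11.70 with oleate and 10.58, 10.55 and 11.02 without.

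SMAD7 was higher with oleate by 0.77 ± 0.09 (adjusted p = 2.25e-09), and the arrays did not overlap in 7 of the 8 pairs, with differences of 0.63 to 0.93. Its lowest, median and highest levels were 7.26, 8.17 and 8.98 over control arrays and 7.77, 9.00 and 9.63 over oleate arrays. The second probe set of SMAD7 differed by 0.20 ± 0.09 (adjusted p = 0.0777). FST, the activin antagonist, was higher by 0.95 ± 0.20 (adjusted p = 0.000205), with control arrays from 6.25 to 8.68 (median 7.21) and oleate arrays from 7.00 to 9.73 (median 8.11). FST was higher in all 8 pairs and without overlap in 3, and its second probe set gave 0.89 ± 0.18 (adjusted p = 8.32e-05). INHBB was higher by 0.72 ± 0.18 (adjusted p = 0.00125), with differences of 0.0045 at 12 h in the fat line to 1.64 at 120 h in the lean line. INHBA, the other activin subunit, was not called (-0.14, adjusted p = 0.18 in limma) and was lower with oleate in 6 of the 8 pairs.

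Smaller rises were those of BMPR2, the BMP type II receptor (0.37 ± 0.09), BMP2 (0.36 ± 0.11), SMAD9 (0.32 ± 0.09), TGFB2 (0.30 ± 0.09) and ACVR2A (0.18 ± 0.06). The second probe set of BMP2 differed by -0.16 ± 0.12 (adjusted p = 0.328). TGFB1 was lower by 0.26 ± 0.07 (adjusted p = 0.00403), in 6 of the 8 pairs. That difference was -0.49 ± 0.10 in the lean line (adjusted p = 0.00029) and -0.03 ± 0.10 in the fat line, but the difference between the lines missed the threshold (0.46 ± 0.14, adjusted p = 0.0785). GDF9 was lower by 0.35 ± 0.14 (adjusted p = 0.0458), a call that was lost without any 1 of 29 of the 48 arrays. GREM1 differed by -0.40 ± 0.35 (adjusted p = 0.404). The other 10 calls held without any single array.

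LTBP1 was not called on its brightest probe set (0.06), whose 48 arrays ran from 11.69 to 12.43. Of its other 4 tested probe sets, 3 rose with oleate, by 0.40 ± 0.06, 0.70 ± 0.08 and 0.94 ± 0.10 (adjusted p = 4.18e-07, 2.37e-10 and 3.66e-11), and the dimmest differed by 0.14 ± 0.11. The medians of these 3 over control and oleate arrays were 11.48 and 11.85, 10.14 and 10.78, and 9.78 and 10.65. With oleate at 12 h against 0 h, within a single name style, the 3 differed by -0.02, 0.09 and 0.17 and were not called. In the culture effect these 3 rose by 1.87 ± 0.12, 2.57 ± 0.15 and 2.45 ± 0.19, against 2.03 on the brightest, and the second probe set of TGFB3 rose by 2.84 ± 0.23 against 1.97. The second probe set of TGFBR2 was lower with oleate by 0.89 ± 0.23 (adjusted p = 0.00204), where the brightest differed by -0.20 and was not called. That of FSTL1 was lower by 0.34 ± 0.11 (adjusted p = 0.0108), where the brightest differed by -0.17 and was not called.

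**Figure D3:**
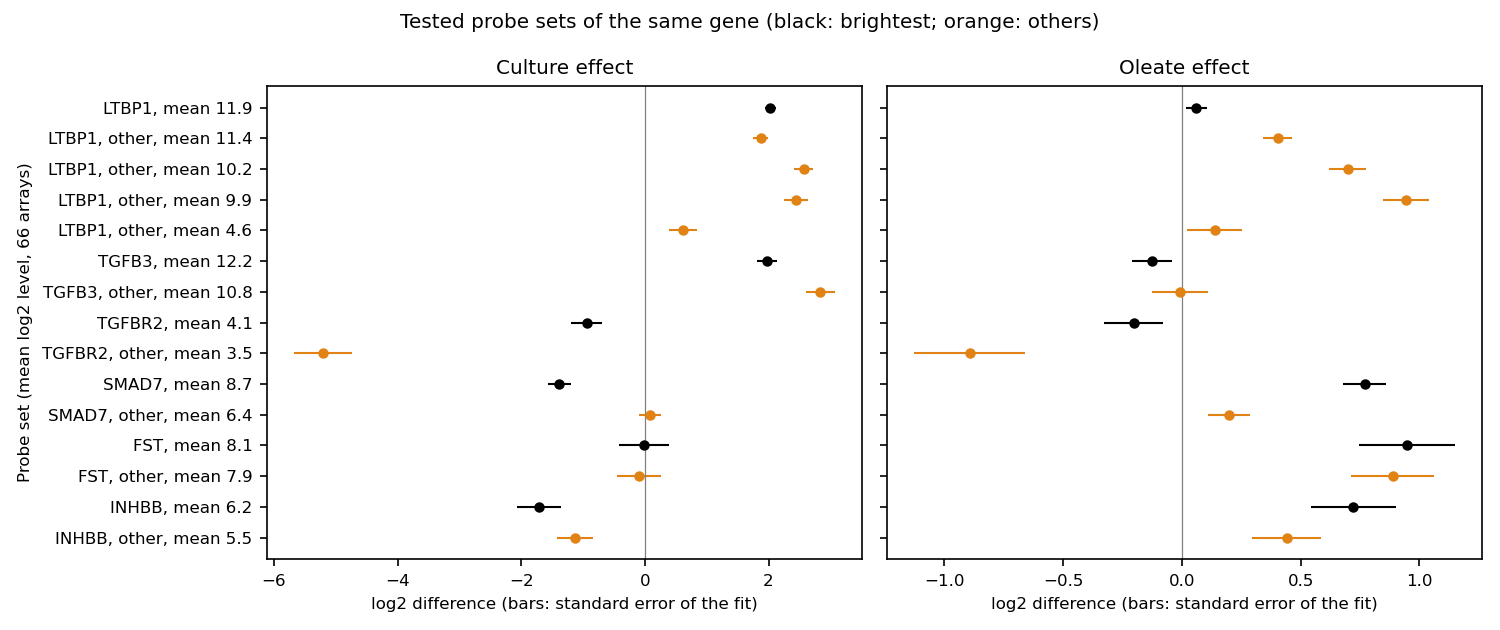
Log2 differences with their standard errors for the tested probe sets of 6 genes (rows, with mean level over 66 arrays), culture effect on the left and oleate effect on the right, brightest probe set in black and others in orange. LTBP1 differs by 0.06 with oleate on the brightest and by 0.40, 0.70 and 0.94 on 3 others, and the probe sets of TGFBR2 and SMAD7 differ from each other in the culture effect.

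Since oleate and control arrays also differ in name style, the style shift was subtracted as a check. After that only 2 of the 35 genes were called, TGFB1 (-1.30 ± 0.30, adjusted p = 0.0205) and SMAD5 (1.44 ± 0.34, adjusted p = 0.022), the same 2 whose shift was itself called, against 155 probe sets in all. SMAD6 then differed by 0.42 ± 0.29 (adjusted p = 0.668), SMAD7 by 0.20 ± 0.38 (0.91) and FST by 1.52 ± 0.83 (0.524). The standard errors were larger than before the subtraction, so the check is less precise, and a call lost in it does not settle the part of style. Within a single style, oleate at 12 h can be set against the 0 h cells it was added to. In that comparison, which also differs in time, SMAD7 was the only gene of the 35 that rose (0.73 ± 0.18, adjusted p = 0.0442; 0.549% of all probe sets tested changed, 0.417% higher and 0.131% lower), from 7.83, 8.22 and 8.71 in lean and 9.30, 9.02 and 8.44 in fat-line cells to 9.15, 8.81 and 9.46 and 9.55, 9.63 and 9.32. SMAD6 differed by 0.54 ± 0.14 (adjusted p = 0.0679). Among other genes higher in the oleate effect, INHBB differed by 0.22, but FST and BMP2 had the opposite sign. FST was at -0.50 and -0.58 on its 2 probe sets (adjusted p = 0.795 and 0.656 in limma) and BMP2 at -0.38 (adjusted p = 0.636). On the second FST probe set the medians were 8.35 at 0 h, 7.03 over control arrays and 7.92 over oleate arrays. The call of SMAD7 was lost without any 1 of 9 of the 12 arrays, and its second probe set differed by 0.25 (adjusted p = 0.73).

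On the pathway list, 15 of 44 genes were higher with oleate and 9 lower, beside 17.4% and 17.6% of all probe sets tested. SNAI2, a transcription factor that TGF-beta induces, was higher by 0.69 ± 0.09, THBS1 by 0.68 ± 0.06, ID2 by 0.67 ± 0.17 and TGFBRAP1, a protein that binds TGF-beta receptors, by 0.80 ± 0.12. FBN1 was higher by 0.70 ± 0.18, and BGN fell by 1.40 (SE 0.21). Macrophage markers moved with these genes, 11 of 12 higher and none lower with oleate, with summed levels of 9.43 to 12.14 over control arrays (median 10.51) and 9.61 to 12.50 over oleate arrays (median 11.56). Of the preadipocyte and stromal markers 3 of 12 were higher and 9 lower. Of 9 adipocyte markers 2 were higher and 1 lower, 2 of 8 endothelial markers were higher and 2 of 4 smooth muscle markers lower. The part of any of these cell types in the oleate effect of SMAD6, SMAD7 and FST was not tested.

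**Figure D4:**
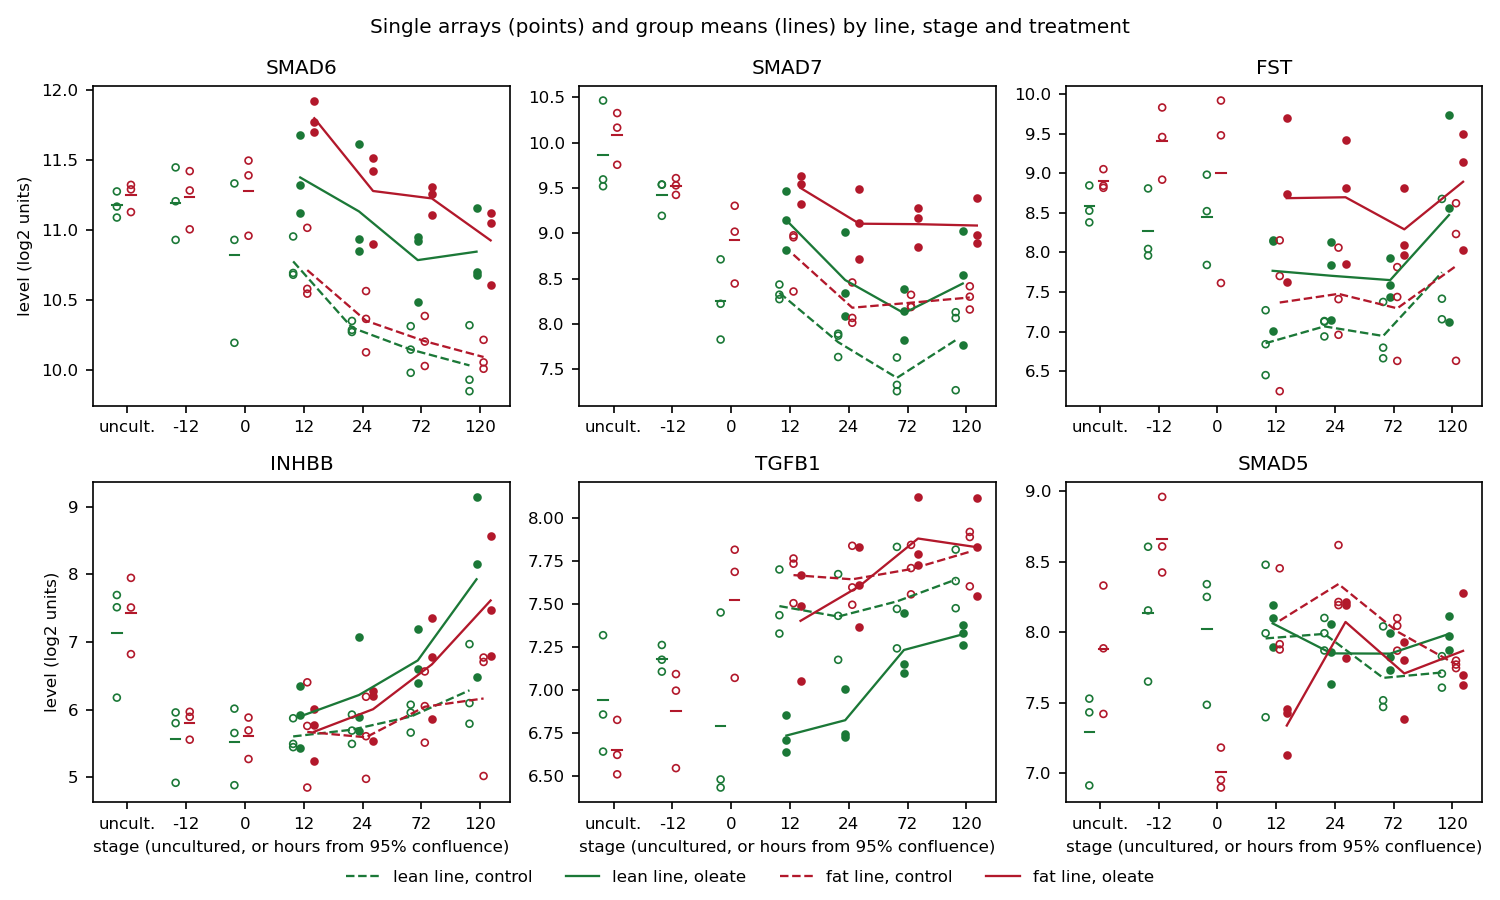
Levels (log2 units) of 6 genes on single arrays (points; filled with oleate, open without) and group means (bars and lines) by stage, evenly spaced and not to time scale, lean line in green and fat line in red. SMAD6 with oleate lies above control in both lines at every hour, INHBB climbs with oleate to 120 h, TGFB1 with oleate is lower in the lean than in the fat line at every hour, and SMAD5 of the fat line is lowest at 0 h and at 12 h with oleate.

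The remaining comparisons set the fat line against the lean line. In uncultured cells none of the 35 genes differed in limma (2.85% of all probe sets tested did, 1.3% higher and 1.55% lower, and 3 of the 35 had an unadjusted p under 0.05). FSTL1, at 8.68, 9.05 and 8.99 in lean and 7.77, 8.19 and 8.46 in fat-line cells, differed by -0.77 ± 0.25 (adjusted p = 0.0875), and GREM1 by 0.26 ± 1.00. At 0 h, 2 genes differed (8.08% of all probe sets tested, 3.81% higher and 4.27% lower): TGFB1 was higher in the fat line by 0.74 ± 0.20 (adjusted p = 0.0157) and SMAD5 lower by 1.02 ± 0.23 (adjusted p = 0.00291), on the arrays given above. The second SMAD5 probe set differed by -0.44 (adjusted p = 0.57). LTBP1 was higher in the fat line by 0.53 ± 0.17 (adjusted p = 0.0424) on 1 other probe set, where the brightest differed by 0.14 and was not called. The call of TGFB1 was lost without any 1 of 4 of those 6 arrays.

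In control cultures 7 genes were higher in the fat line and 1 was lower (16.1% of all probe sets tested, 7.75% higher and 8.3% lower). ACVR2B, an activin type II receptor, was higher by 0.65 ± 0.17 (adjusted p = 0.00628), with 12 lean arrays from 3.77 to 5.28 (median 4.71) and 12 fat-line arrays from 4.61 to 5.60 (median 5.25). SMAD7 was higher by 0.53 ± 0.13 (adjusted p = 0.00377) and TGFB2 by 0.48 ± 0.13 (adjusted p = 0.00958), in each of the 4 hours. GDF2, BMP3, BMPR2 and LTBP1 were higher by 0.70, 0.64, 0.40 and 0.17, and SMAD3 was lower by 0.23. These 5 calls were each lost without any 1 of 5 to 17 of the 24 arrays. All 5 were also lost with a random replicate block by line, name style and replicate number. The calls of ACVR2B, SMAD7 and TGFB2 held in both checks. On its other probe sets LTBP1 was higher in the fat line by 0.37 ± 0.09, 0.39 ± 0.11 and 0.58 ± 0.14 (adjusted p = 0.00173, 0.00991 and 0.00254), with 0.01 on the dimmest, and the second SMAD7 probe set gave 0.39 ± 0.13 (adjusted p = 0.027). The second INHBA probe set was higher in the fat line by 0.48 ± 0.15 (adjusted p = 0.0253), where the brightest differed by 0.29 and was not called. GREM1 was lower in the fat line in all 4 hours, by 1.19 ± 0.50 on average, but missed the threshold (adjusted p = 0.096).

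In oleate cultures 6 genes were higher in the fat line and 1 was lower (15.3% of all probe sets tested, 7.53% higher and 7.75% lower). TGFB1 had 12 lean arrays from 6.64 to 7.45 (median 7.05) and 12 fat-line arrays from 7.05 to 8.12 (median 7.70). At each of the 4 hours all 3 fat-line arrays lay above all 3 lean arrays, and the difference was 0.65 ± 0.10 (adjusted p = 6.07e-06). ACVR2B was higher by 0.76 ± 0.17 (adjusted p = 0.00133), from 5.23 to 5.76 in the fat line and 3.95 to 5.55 in the lean line. SMAD7 was higher by 0.65 ± 0.13, BMP2 by 0.58 ± 0.16, SMAD2 by 0.33 ± 0.09 and LTBP2 by 0.57 ± 0.20, and FSTL1 was lower by 0.38 ± 0.13. LTBP2 and FSTL1 lost their calls without any 1 of 16 and 12 arrays. None of the 5 other probe sets of these 7 genes, which belong to SMAD7, BMP2, LTBP2 and FSTL1, was called in limma, though all 5 had the same sign. The second SMAD7 probe set differed by 0.098 ± 0.13 (adjusted p = 0.674). LTBP1 was not called on its brightest probe set (0.06), but 3 others were higher in the fat line by 0.49 ± 0.09, 0.55 ± 0.11 and 0.71 ± 0.14 (adjusted p = 3.44e-05, 0.000274 and 0.000184). GREM1 differed by -1.29 ± 0.50 (adjusted p = 0.0721), again lower in the fat line in all 4 hours.

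ACVR2B and SMAD7 were thus called in both treatments on their brightest probe sets, with SMAD7 in oleate resting on 1 of 2 probe sets. None of the 35 genes had an oleate effect that differed between the lines (1.85% of all probe sets tested did in limma, 0.956% higher and 0.893% lower, and 10 of the 35 had an unadjusted p under 0.05), with the largest differences at BMP3 (-0.91 ± 0.32, adjusted p = 0.123) and TGFBR2 (-0.84 ± 0.25, adjusted p = 0.0601). On the pathway list 5 of 44 genes were higher and 4 lower in the fat line in control cultures, beside 7.75% and 8.3% of all probe sets tested. In oleate cultures the counts were 5 and 2, beside 7.53% and 7.75%. THBS1 was higher by 0.48 ± 0.08 and 0.64 ± 0.08, and SKIL, a repressor of SMAD-driven transcription, by 0.57 ± 0.09 and 0.61 ± 0.09. CHRDL1 was lower in the fat line in control cultures by 1.45 ± 0.27. Macrophage markers were higher in fat-line control cultures, 5 of 12 with none lower, with summed levels of 9.43 to 10.63 in the lean and 9.78 to 12.14 in the fat line, and 1 of 12 was higher in oleate cultures. Other markers differed too. In fat-line control cultures 1 of 9 adipocyte markers was higher and 3 were lower, and 1 of 8 endothelial markers was higher and 1 lower. In oleate cultures 2 of 12 preadipocyte and stromal markers were higher and 1 was lower. In each treatment 1 of 4 smooth muscle markers was lower. The part of these cell types in the line differences was not tested.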

How the data were processed

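Total RNA of chicken preadipocytes (6 µg per array) was hybridised to Affymetrix chicken arrays, per the labels' protocols. The authors deposited values of 38535 probe sets for 66 arrays. MAS5 is named in the submitters' processing notes; further steps and any genome build are not given in the sources used here. The authors' values were taken as log2 from their range (-5.23 to 13.51, median 4.17 on every array); sorted arrays differed by at most 0.0615, so each array has nearly the same distribution, and a change common to all genes could not be seen. The number of arrays limits the precision.

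Values were raised to at least 1.61, the median 20th percentile of the arrays. Tests covered the 22060 probe sets that exceeded the array median on all 3 arrays of some group, without 96 control probe sets. The platform annotation names 1 gene for 27178 probe sets, several for 177 and none for 11180. Group means (22) were fitted to all 66 arrays with limma 3.58.1 in R 4.3.3 (statmod 1.5.0, data.table, version 1.17.8; trended and robust prior, 44 residual degrees of freedom), with Benjamini-Hochberg adjustment over 22060 probe sets in each of 13 comparisons. The threshold was an adjusted p of 0.05. The procedure was tested on simulated data.

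In each comparison up to 15 called genes per direction were named by size, always GREM1, others to complete a role, and up to 6 called genes of the pathway list. Probe sets other than the brightest, the single-line and single-hour values and the genes named as not called were chosen after their values were seen. The gene set, pathway list and marker lists were chosen with earlier results of these data known. No sequences or coordinates are given. Alternatives covered the lower bound, the filter, averaging of probe sets, 2 replicate blocks, array weights, the variance model, centring, the arrays fitted, the name styles and each array left out.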

Additional observations from a re-analysis of the deposited data

Results flagged for a closer look

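The change from uncultured cells to 0 h differed between the lines for TGFB1 and SMAD5, by a test of the difference itself in limma. TGFB1 changed more upward in the fat line than in the lean line by 1.02 ± 0.29 (SE, adjusted p = 0.0318), with all 3 fat-line arrays at 0 h above the uncultured ones. SMAD5 changed more downward in the fat line by a difference of -1.60 ± 0.33 (adjusted p = 0.00199), with all 3 fat-line arrays at 0 h below the uncultured ones. The call of TGFB1 was lost without any 1 of 7 of the 12 arrays (differences of 0.83 to 1.36 over all 12 omissions), and that of SMAD5 held without any single array. With only the arrays of the groups compared, neither gene was called. The second SMAD5 probe set was not called either (-0.96, adjusted p = 0.374 in limma). TGFB1 and SMAD5 are the same genes whose change from -12 h to 0 h differed between lines, and all of these contrasts share the 6 arrays at 0 h.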

How the results depend on the processing

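Of 73 single-gene differences that were called, 70 kept their sign under every alternative and 31 also kept their call; 24 lost the call without at least 1 single array and 40 under at least 1 other alternative. Averaging the probe sets of a gene and fitting only the arrays of the groups compared each ended 17 calls, and testing without the filter on dim probe sets ended 13. The signs that turned were those of BMP2 (-0.012) and GDF9 (0.43) in the oleate effect less the style shift, and of ACVR2A (-0.060) in the oleate effect with probe sets averaged. GREM1, not called in these comparisons, turned with array weights in oleate at 12 h against 0 h (-0.32) and in the line difference of the oleate effect (0.069), and with no lower bound in the line difference of the culture effect (-0.040). Without single arrays GREM1 ranged from -0.32 to 0.99, from -0.38 to 0.21 and from -0.60 to 1.56 in these 3 comparisons, and from -0.34 to 1.83 between lines at 0 h. The causes were not tested.

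The number of genes called went from 6 to 2 for confluence in the lean line only, from 4 to 2 for time in control culture without the filter, from 11 to 7 for time in oleate with only the groups compared, and from 11 to 2 for oleate less the style shift. For oleate at 12 h against 0 h it went from 1 to 0 without the filter, with probe sets averaged, with the plain variance model and with only the groups compared. Between lines it went from 2 to 1 (averaged) and 0 (only the groups compared) at 0 h, from 8 to 4 in control (no filter), and from 7 to 13 in oleate (array weights). The line difference in the oleate effect went from 0 to 8 with array weights and to 1 with the plain variance model or only the groups compared, and that in the culture effect from 2 to 1 (no filter) and 0 (only the groups compared). Without single arrays the counts ran from 18 to 21 (culture), 3 to 6 (confluence), 1 to 5 (time in control), 8 to 12 (time in oleate), 10 to 12 (oleate), 0 to 2 (oleate at 12 h against 0 h), 1 to 3 (lines at 0 h), 3 to 8 (lines in control), 5 to 11 (lines in oleate), 0 to 2 (lines, oleate effect) and 1 to 2 (lines, culture effect).

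Replicate numbers were not treated as pairing the samples, under a rule that asked for every correlation of deviations to be over 0.1. So strict a rule is no evidence against pairing. Arrays of the same line and number still deviated together more often, with a mean correlation of 0.0832 and 131 of 330 over 0.1, than arrays of the same line and different numbers, with -0.0415 and 31 of 660. With the number within line as a replicate block, 2 genes were called for oleate at 12 h against 0 h and 1 for the line difference in the oleate effect, LTBP2 between lines in oleate lost its call (adjusted p = 0.053 in limma) and GREM1 there was called (-1.29, adjusted p = 0.0438). A random replicate block ended 8 of the 73 calls and gave 2 called genes for oleate at 12 h against 0 h and 3 between lines in control.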
